A study of Danio rerio with 16 samples.

Results

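The forkhead genes encode transcription factors of the Fox family, and 42 of them were described here in sorted zebrafish brain cells. They are the symbols that begin with fox, a subfamily letter from a to r and a digit, and that had at least 10 reads in 2 or more libraries, out of 54 such symbols and 30565 symbols in all. Of the other symbols, 10 had no read in any library, and foxf1 and foxi2 had reads in 1 library each. The 16 bulk RNA-seq libraries come from fish aged 1 month, with whole brains dissected, 8 brains pooled per replicate, cells dissociated with papain and sorted by fluorescence. LH cells are the GCaMP6s-positive cells of the line Tg(76A:Gal4FF:UAS:GCaMP6s), used for the lateral hypothalamus, and non-LH cells are the GCaMP6s-negative cells of the same line. cH cells are the GFP-positive cells of the line Tg(116A:Gal4FF:UAS:GFP), used for the caudal hypothalamus, and non-cH cells are its GFP-negative cells, with 4 libraries in each of the 4 groups. All fish carried a Gal4FF driver and a reporter, the labels do not name the gene that drives 76A or 116A, and because whole brains were sorted, any brain cell with the reporter could enter a positive fraction.

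Forkhead factors bind DNA through a winged-helix domain that is shared by the whole family, and subfamilies differ in the rest of the protein and in where they act. Some members mark brain regions during development, such as Foxb1 in the mammillary hypothalamus of the mouse, and others act in differentiating neurons, such as Foxn4 and the FoxP repressors. FoxJ1 is known as the main switch for genes of motile cilia, FoxM1 drives mitotic genes in dividing cells, and FoxO factors are held out of the nucleus when insulin and PI3K-Akt signalling phosphorylates them.

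Library totals ran from 26848940 to 49350823 counts, and levels are given in CPM, counts relative to the TMM-scaled library total. The cH libraries stood apart from the rest: they detected 15205 ± 1890 symbols, where non-cH libraries detected 19994 ± 785, LH libraries 19782 ± 300 and non-LH libraries 20824 ± 195 (SD, n = 4 each). Among them cH libraries 1 and 2 detected the fewest, 13478 and 13663 symbols, against 16793 and 16887 in cH libraries 3 and 4. Libraries of a group correlated across genes with a median r of 0.643 for cH, 0.842 for LH, 0.869 for non-LH and 0.824 for non-cH. Each LH library detected 27 to 30 of the members and each non-LH library 30 to 35, while cH libraries detected 21 to 30 and non-cH libraries 27 to 36. Of all counts, forkhead genes held 0.181% ± 0.0120 (LH), 0.191% ± 0.00800 (non-LH), 0.153% ± 0.0571 (cH) and 0.197% ± 0.00892 (non-cH; SD, n = 4 each). Among counts from 1 to 20, between 64.4% and 74.7% were even numbers, depending on the library. No label says whether both reads of a pair were counted; if they were, the bounds given for genes at 0 are too high.

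**Figure D1:**
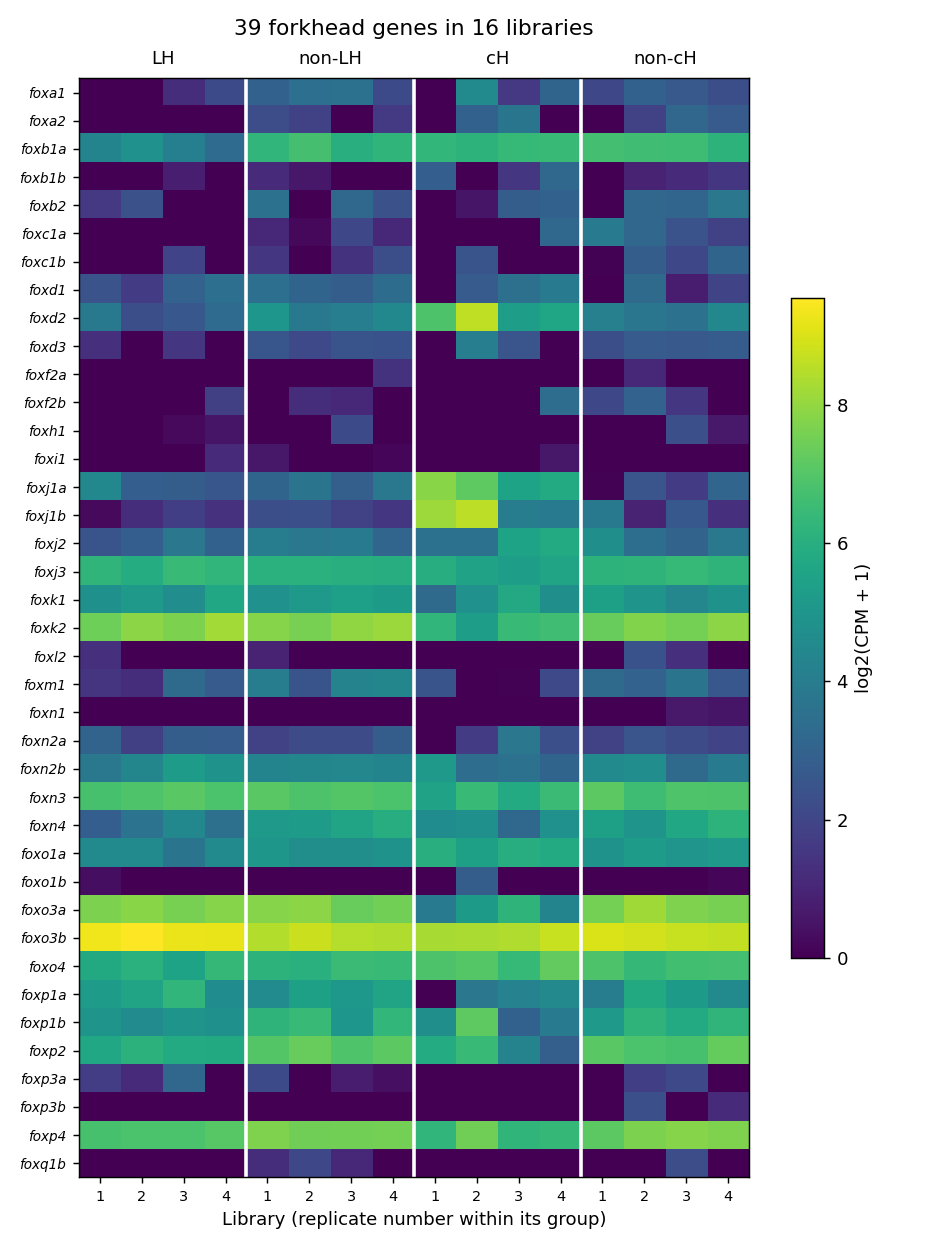
Level of 39 of the 42 forkhead genes (rows) in each of the 16 libraries (columns, 4 per group, numbered by replicate), as log2(CPM + 1) on the colour scale. The foxo3b row is brightest in the LH libraries, the foxb1a row is darker in the 4 LH libraries than in the other 12, and the foxj1a, foxj1b and foxd2 rows are brightest in cH libraries 1 and 2.

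In LH cells, 6 forkhead genes passed the test against non-LH cells, of 29 that had enough reads to be tested. The FoxO gene foxo3b was higher, and foxb1a, foxn4, foxp1b, foxp2 and foxp4, genes of regional patterning and neuronal differentiation, were lower, by between 1.61-fold for foxp4 and 4.43-fold for foxb1a in mean CPM. Of all genes tested in this comparison, 7.14% were called higher and 6.24% lower. The groups did not overlap for 3 of the 42 members on the higher side and for 9 on the lower side, where the same held for 9.07% and 9.87% of all genes with at least 10 counts in 2 libraries. The median log2 fold change was -0.47 over the 29 members tested and -0.01 over all genes tested. Under an unadjusted p of 0.05 were 9 of the 29 members and 4706 of all 18674 genes tested. The other 13 members had too few reads for the test. Calls are from edgeR's quasi-likelihood test with Benjamini-Hochberg adjustment over all genes tested in that comparison, at 0.05. None of the 6 calls was lost when any of the 8 libraries was left out. In 1 fit of all 16 libraries, where the groups share an estimate of the spread, foxb1a and foxo3b passed and the other calls did not, with adjusted p from edgeR of 0.0590 for foxn4, 0.604 for foxp1b, 0.379 for foxp2 and 0.253 for foxp4.

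In cH cells, 4 forkhead genes passed against non-cH cells, of 31 tested. The cilia factor foxj1a and foxd2 were higher, and foxo3a and foxk2 were lower. Of all genes tested, 5.05% were called higher and 6.85% lower. The groups did not overlap for 4 members on the higher side and 8 on the lower side, against 7.17% and 15.2% of all genes. The median log2 fold change was -0.22 over the members tested and -0.20 over all genes. Under an unadjusted p of 0.05 were 10 of the 31 members and 3742 of all 17265 genes tested. The calls depended on single libraries: without non-cH library 2 no member passed, and without non-cH library 3 or 4 only foxo3a did. Over all genes the calls also fell, to 819, 874 and 769 without non-cH library 2, 3 and 4, against 2054 with all 8 libraries. Only foxo3a passed with replicate number as a block in the fit, where 483 of all genes were called. With cH libraries 1 and 2 set aside, 6 of 37 members tested passed, foxd2 on the higher side and foxk2, foxo3a, foxp1b, foxp2 and foxp4 on the lower side, where 7.59% of all genes tested were called higher and 11.2% lower.

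**Figure D2:**
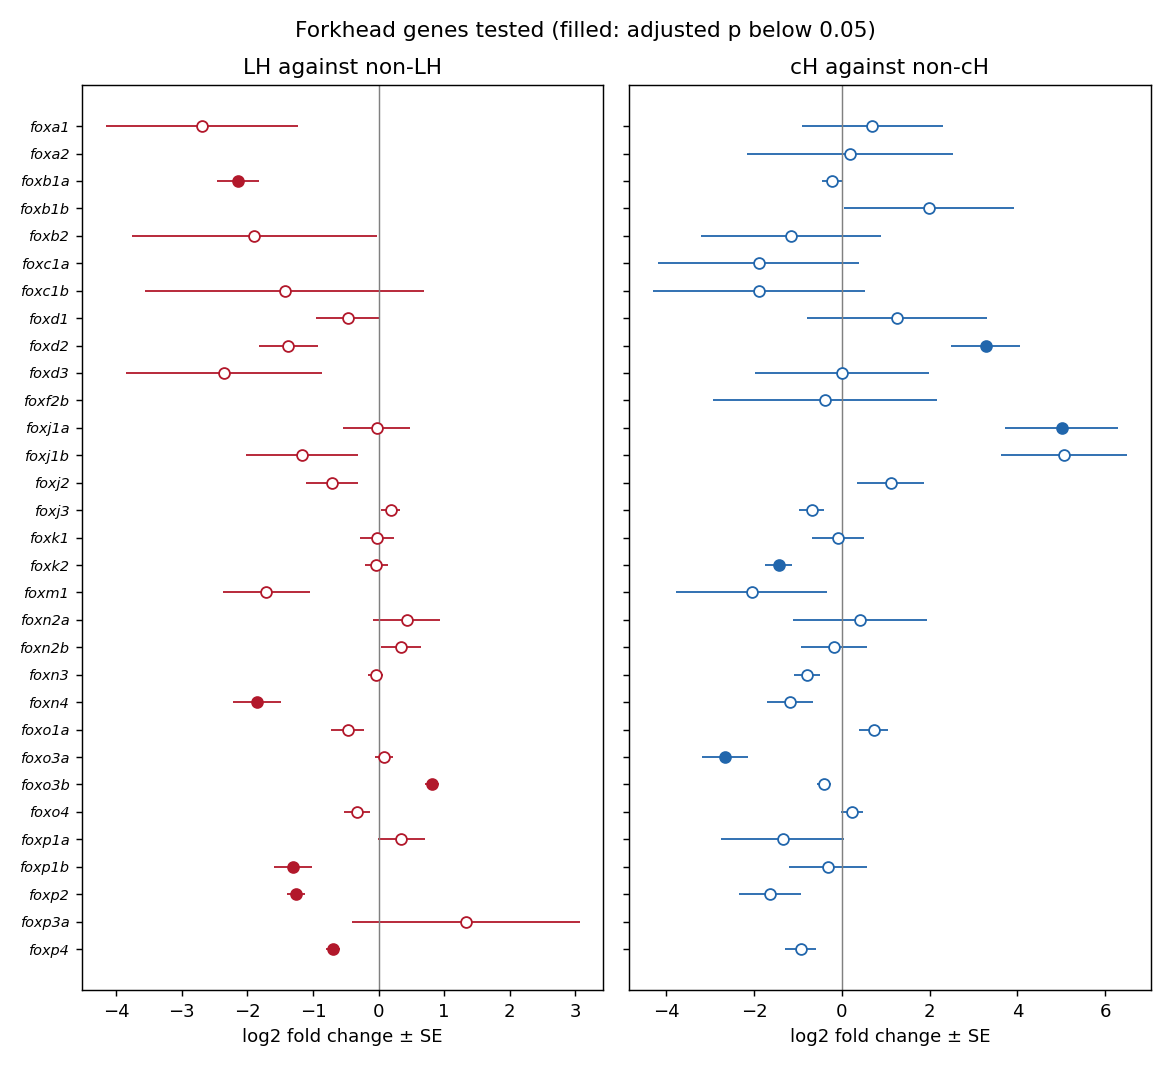
Log2 fold change with its standard error (x axes) for members tested in LH against non-LH (left) and cH against non-cH (right), with adjusted p below 0.05 as filled points. On the left foxb1a, foxn4, foxp1b, foxp2 and foxp4 are filled below 0 and foxo3b above 0; on the right foxd2 and foxj1a are filled above 0 and foxk2 and foxo3a below 0.

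Cell type markers differed between the same groups. Of all genes tested, 7.14% were called higher and 6.24% lower in LH, and 5.05% and 6.85% in cH. In LH against non-LH, of the genes of each list that could be tested, neuronal markers had 4 higher and 5 lower of 13 (7575 to 8533 CPM in sum in LH and 8245 to 8782 CPM in non-LH), midbrain and hindbrain genes 1 higher and 12 lower of 15, posterior hypothalamic genes 2 higher and 10 lower of 17, telencephalic genes 0 higher and 4 lower of 11 (129 to 185 CPM in sum in LH and 344 to 476 CPM in non-LH), and radial glia genes 1 higher and 7 lower of 14, while their summed level overlapped, at 3476 to 6034 CPM in LH and 3397 to 6530 CPM in non-LH. The summed midbrain and hindbrain level was 1045 to 1499 CPM in LH and 2254 to 2475 CPM in non-LH, with atoh1a at 0 in both groups. Most of the LH sum was the 1 higher gene, tfap2a, at 813 ± 161 CPM of a mean sum of 1282 CPM. In non-LH tfap2a averaged 220 ± 30.6 CPM of 2340 CPM. The posterior hypothalamic sum was 420 to 498 CPM in LH and 716 to 992 CPM in non-LH, and fezf2, lmx1a and sim1b were at 0 in LH. Whether the genes of this list are confined to the posterior hypothalamus was not tested. The negative cells come from the rest of the whole brain, so nothing about the hypothalamic identity of LH or cH cells is read from this list. Microglial markers had 3 higher and 0 lower of 8, and red blood cell genes 0 higher and 6 lower of 6. In cH against non-cH, radial glia genes had 10 higher and 0 lower of 14, with summed levels of 57791 to 114605 CPM in cH against 3877 to 10678 CPM in non-cH, and her6 was at 0 in non-cH. Neuronal markers had 0 higher and 11 lower of 13, at 413 to 1753 CPM in cH against 8665 to 10434 CPM in non-cH. In these lists the smallest p belonged to sox2, a progenitor factor (562 ± 116 CPM in cH and 124 ± 27.1 CPM in non-cH), and elavl4, a neuronal RNA-binding protein gene (57.4 ± 27.8 CPM in cH and 896 ± 133 CPM in non-cH). Midbrain and hindbrain genes had 0 higher and 7 lower of 15, at 541 to 1325 CPM in cH and 2339 to 2990 CPM in non-cH. Of the mean cH sum of 970 CPM, zic1 made up 613 ± 259 CPM. Telencephalic genes had 0 higher and 2 lower of 10, at 18.9 to 218 CPM in cH and 436 to 509 CPM in non-cH. Of the posterior hypothalamic genes 1 rose, nkx2.4a, and 2 fell of 15, and lmx1a and sim1a were at 0 in cH. The smallest p of that list belonged to lhx9, which fell (2.43 ± 2.67 CPM in cH and 321 ± 32.5 CPM in non-cH). The riser nkx2.4a stood at 123 ± 63.6 CPM in cH and 30.5 ± 6.09 CPM in non-cH. The list summed to 167 to 383 CPM in cH and 830 to 903 CPM in non-cH. The part of these cell types in the forkhead results was not tested. In bulk RNA from sorted pools, fewer cells of a type and less RNA per cell cannot be told apart.

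Of the regional patterning genes, foxb1a passed in LH. The gene foxb1a, whose mouse counterpart is needed for the mammillary body, stood at 19.0, 27.5, 16.5 and 9.01 CPM in the 4 LH libraries, against 76.8, 104, 62.9 and 75.2 CPM in the non-LH libraries. All LH libraries lay below every non-LH library, with a log2 fold change of -2.15 ± 0.32 (SE) and an adjusted p of 0.00168 from edgeR. In cH libraries it stood at 78.5, 70.4, 83.6 and 86.1 CPM, against 104, 96.6, 94.5 and 70.3 CPM in non-cH libraries, so that these groups overlapped (log2 fold change -0.22 ± 0.23, edgeR adjusted p 0.712). The change in LH differed from that in cH by -1.95 ± 0.42 on the log2 scale (edgeR adjusted p 0.00548 for the difference of the differences). The other FoxB genes were sparse: foxb2 averaged 1.54 CPM in LH and 5.73 CPM in non-LH, and 3.29 CPM in cH and 7.03 CPM in non-cH, with at least 1 library at 0 in every group. The levels of foxb1b averaged 0.181 CPM in LH and 0.448 CPM in non-LH, while cH libraries averaged 4.04 CPM and non-cH libraries 0.993 CPM; its reads lie in 3 rows of the table and its values are uncertain for that reason.

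Within FoxD, foxd2 was higher in cH. This gene, known from kidney development in the mouse, stood at 118, 392, 40.1 and 48.6 CPM in cH libraries, against 17.0, 12.5, 11.0 and 20.9 CPM in non-cH libraries. All cH libraries were higher than every non-cH library, and cH library 2 was the highest by far (log2 fold change 3.28 ± 0.78, edgeR adjusted p 0.0279). Its call was lost without any 1 of the non-cH libraries, with adjusted p over all left-out libraries from 0.0235 to 0.0907. With cH libraries 1 and 2 set aside the log2 fold change was 1.53 ± 0.38 (edgeR adjusted p 0.0333). In LH, foxd2 stood at 13.6, 3.90, 5.01 and 9.11 CPM, against 31.7, 13.5, 16.0 and 21.1 CPM in non-LH, and the groups overlapped by LH library 1 alone (log2 fold change -1.38 ± 0.45, edgeR adjusted p 0.0747). Without that library the change passed, at an edgeR adjusted p of 0.0328. The 2 changes differed by -4.68 ± 0.94 on the log2 scale (edgeR adjusted p 0.00358). In a RefSeq table of another zebrafish assembly, foxd2 lies beside foxe3, which had 0 counts in all 16 libraries.

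None of the remaining FoxD and FoxA genes passed in LH or in cH. The neural crest factor foxd3 stood at 1.47, 0.00, 1.87 and 0.00 CPM in LH, against 4.92, 3.28, 4.65 and 4.30 CPM in non-LH, without overlap (log2 fold change -2.36 ± 1.5, edgeR adjusted p 0.392). It averaged 5.20 CPM in cH, with 2 libraries at 0, and 5.16 CPM in non-cH. Means of foxd1, a gene of the developing hypothalamus in the mouse, were 5.97 CPM in LH and 8.27 CPM in non-LH, and 7.69 CPM in cH and 3.13 CPM in non-cH. FoxA factors open chromatin and mark floor plate and dopaminergic progenitors in vertebrate embryos. Here foxa1 averaged 1.21 CPM in LH, with 2 libraries at 0, and 7.82 CPM in non-LH, and the groups overlapped (edgeR adjusted p 0.304). The levels of foxa2 were 0 in all 4 LH libraries, against 360 counts over the non-LH libraries. A floor of 3 counts over the group puts LH at least 102-fold lower, a bound that covers counting error and not the spread between libraries. Non-LH library 3 was at 0 too, so the groups overlapped (exact permutation p 0.143). In cH, foxa1 averaged 7.87 ± 9.91 CPM and foxa2 4.74 ± 5.89 CPM, against 4.80 ± 1.61 and 4.04 ± 3.42 CPM in non-cH (SD, n = 4).

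**Figure D3:**
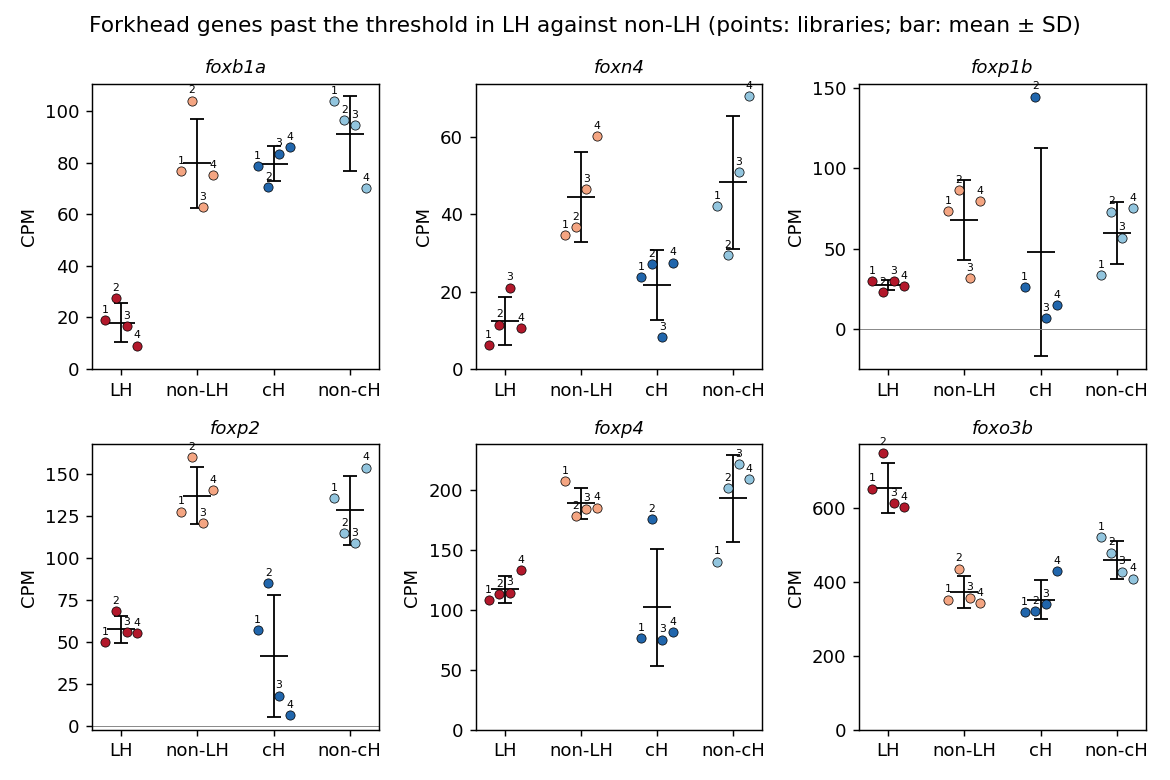
CPM of the 6 genes called in LH against non-LH, in all 4 groups, with 1 point per library (numbered by replicate) and the mean ± SD as a bar. The 4 LH points lie below all non-LH points for foxb1a, foxn4, foxp1b, foxp2 and foxp4 and above them for foxo3b, and cH library 2 lies apart from the other cH libraries for foxp1b and foxp4.

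The neuronal differentiation gene foxn4 was lower in LH. Known for directing retinal amacrine cells and spinal V2 interneurons in the mouse, it stood at 6.20, 11.4, 21 and 10.6 CPM in LH, against 34.6, 36.8, 46.5 and 60.1 CPM in non-LH. The groups did not overlap (log2 fold change -1.86 ± 0.36, edgeR adjusted p 0.00775). In cH it stood at 23.7, 27.0, 8.22 and 27.5 CPM, against 42.1, 29.5, 50.9 and 70.5 CPM in non-cH, again without overlap but not past the threshold (log2 fold change -1.18 ± 0.53, edgeR adjusted p 0.242). Its relative foxn3, a widely expressed repressor, averaged 120 ± 12.3 CPM in LH and 124 ± 10.9 CPM in non-LH (SD, n = 4), and the ratio of foxn4 to foxn3 counts was 0.057 to 0.154 in LH and 0.253 to 0.533 in non-LH. In cH foxn3 averaged 69.5 ± 22.6 CPM, against 118 ± 18.2 CPM in non-cH (edgeR adjusted p 0.156). The genes foxn2a and foxn2b averaged 5.38 and 24.9 CPM in LH, against 3.99 and 19.6 CPM in non-LH; in cH they averaged 4.79 and 15.5 CPM, against 3.49 and 17.5 CPM in non-cH, and neither passed in these comparisons. For foxn2b, 84.2% to 100% of the counts lay in 1 of its 2 rows.

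The FoxP genes, which encode repressors that act as dimers and are studied in speech, striatum and cerebellum, were lower in LH for 3 of the 4 genes that had reads in every LH and non-LH library. The level of foxp2 was 50.0, 68.6, 56.1 and 55.4 CPM in LH, against 128, 160, 121 and 140 CPM in non-LH. All LH libraries were below all non-LH libraries (log2 fold change -1.25 ± 0.14, edgeR adjusted p 0.000316). For foxp4 the levels were 108, 113, 114 and 133 CPM in LH, against 207, 178, 184 and 185 CPM in non-LH, with a smaller change that also separated the groups (log2 fold change -0.69 ± 0.11, edgeR adjusted p 0.00191). For foxp1b they were 30.0, 23.1, 29.6 and 26.6 CPM in LH, against 73.5, 86.4, 31.5 and 79.3 CPM in non-LH. Non-LH library 3 lay just above the LH range, and the log2 fold change was -1.31 ± 0.29 (edgeR adjusted p 0.0141). With limma voom and weights per group foxp1b missed the threshold, at an adjusted p of 0.0594. The copy foxp1a overlapped, at 46.2 ± 22.9 CPM in LH and 36.3 ± 10.4 CPM in non-LH (edgeR adjusted p 0.633). Exact permutation tests gave p = 0.0286 for each of foxp1b, foxp2 and foxp4, the smallest that 4 against 4 libraries allow. Any such groups without overlap give this value.

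In cH the FoxP genes varied between libraries. The level of foxp2 was 57.3, 85.0, 18.1 and 6.4 CPM in cH, against 136, 115, 109 and 154 CPM in non-cH. The groups did not overlap, but the change did not pass (log2 fold change -1.63 ± 0.71, edgeR adjusted p 0.229); with cH libraries 1 and 2 set aside it was -3.39 ± 0.49 (edgeR adjusted p 0.0051). For foxp4, cH stood at 76.5, 175, 75.0 and 81.1 CPM, against 140, 202, 221 and 209 CPM in non-cH, and cH library 2 alone reached into the non-cH range (edgeR adjusted p 0.14). Without that library foxp4 passed, at an adjusted p of 0.0101. For foxp1b, cH stood at 26.3, 145, 6.77 and 14.7 CPM, against 33.6, 73.0, 56.8 and 75.2 CPM in non-cH. The same cH library 2 was the highest of the 8 (log2 fold change -0.32 ± 0.89, edgeR adjusted p 0.912). The copy foxp1a averaged 13.0 ± 9.36 CPM in cH, with cH library 1 at 0, and 32 ± 17.5 CPM in non-cH (SD, n = 4). Summed over the 6 FoxP genes, the level was 227 to 285 CPM in LH and 370 to 466 CPM in non-LH, and 118 to 418 CPM in cH and 325 to 462 CPM in non-cH.

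Of the 2 copies of the cilia factor FoxJ1, foxj1a passed as higher in cH cells and foxj1b did not. FoxJ1 turns on genes of motile cilia in ependymal and other multiciliated cells. The copy foxj1a stood at 230, 143, 45.6 and 56.2 CPM in cH, against 0.0458, 4.79, 2.21 and 7.61 CPM in non-cH. Each cH library was above every non-cH library, with libraries 1 and 2 highest (log2 fold change 5.01 ± 1.28, edgeR adjusted p 0.0375). The copy foxj1b stood at 284, 387, 15.3 and 14.3 CPM in cH, against 13.5, 0.958, 5.26 and 1.49 CPM in non-cH. These groups too did not overlap, cH libraries 1 and 2 again being the highest and libraries 3 and 4 close to non-cH library 1 (log2 fold change 5.05 ± 1.44, edgeR adjusted p 0.0588). Exact permutation tests gave an unadjusted p = 0.0286 for both. Any 4 against 4 libraries without overlap give this value, so it adds nothing to the lack of overlap.

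These results rest in size on cH libraries 1 and 2. With both set aside, the log2 fold change was 3.80 ± 1.30 for foxj1a (edgeR adjusted p 0.0913) and 1.48 ± 1.07 for foxj1b (edgeR adjusted p 0.381). The call of foxj1a was lost when cH library 1, 2 or 4 or non-cH library 2, 3 or 4 was left out, with adjusted p over all left-out libraries between 0.0300 and 0.115, and foxj1b passed without cH library 3 or 4, over a range of 0.0422 to 0.153. In LH, foxj1a stood at 20.8, 6.15, 6.10 and 4.88 CPM, against 7.37, 11.7, 6.4 and 13.3 CPM in non-LH, and foxj1b at 0.170, 1.39, 2.42 and 1.59 CPM, against 3.87, 4.06, 2.73 and 1.87 CPM in non-LH. Neither change passed, and the groups overlapped (edgeR adjusted p 0.985 and 0.466). The change in LH differed from that in cH by -5.06 ± 1.34 for foxj1a and by -6.25 ± 1.57 for foxj1b on the log2 scale (edgeR adjusted p 0.0217 and 0.0160). Neither difference passed once cH libraries 1 and 2 were set aside (edgeR adjusted p 0.0567 for foxj1a and 0.182 for foxj1b).

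Motile cilia genes known as FoxJ1 targets were followed from a list of 24. In cH against non-cH, 2 of the 17 tested rose, rfx2, itself a cilia regulator (202 ± 65.5 CPM in cH and 43.0 ± 14.6 CPM in non-cH, edgeR adjusted p 0.0101), and the dynein chain gene dnai1.2 (31.9 ± 34.6 CPM in cH and 1.06 ± 0.535 CPM in non-cH, edgeR adjusted p 0.0317). None fell, and the median log2 change of the tested cilia genes stood at 2.56, with -0.20 over all genes. Of all genes tested in cH against non-cH, 5.05% were called higher. The list summed to 803, 815, 350 and 240 CPM in the 4 cH libraries, against 111, 161, 118 and 120 CPM in the non-cH libraries. The higher sums were in the same cH libraries as the higher foxj1a and foxj1b values. Of the mean sum of the cilia list, rfx2 made up 202 of 552 CPM in cH and 43.0 of 127 CPM in non-cH. In LH against non-LH none of 19 tested passed in either direction, the median was -0.18, and the sums overlapped, at 132 to 147 CPM in LH and 127 to 163 CPM in non-LH. Markers of ependymal cells, a list that shares rfx2 and several cilia genes with this one, had 2 higher and 0 lower of 10 in cH (rfx2 and rfx4), with sums of 272 to 561 CPM in cH against 72.6 to 109 CPM in non-cH, where dnah9 was at 0. Of the mean ependymal sum of 455 CPM in cH, rfx2 made up 202 CPM and rfx4 109 CPM. In non-cH they made up 43.0 and 9.74 CPM of 86.2 CPM. In LH none of 11 passed (64.4 to 97.9 CPM in LH and 65.6 to 92.3 CPM in non-LH), and dnah9, gmnc and mcidas were at 0 in LH. Their part in the foxj1a and foxj1b result was not tested. Radial glia markers were also higher in cH, and whether the rfx2 and rfx4 reads came from ependymal cells was not tested.

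The other FoxJ genes did not pass in LH or in cH. The level of foxj2 averaged 31.1 ± 23.7 CPM in cH, with libraries 3 and 4 at 45.8 and 56.6 CPM and libraries 1 and 2 at 11.0 and 10.8 CPM, and 14.0 ± 8.24 CPM in non-cH (edgeR adjusted p 0.504). This split of the cH libraries is the reverse of that of foxj1a and foxj1b. For foxj3, cH averaged 47.6 ± 9.19 CPM and non-cH 75.2 ± 5.80 CPM, without overlap (log2 fold change -0.68 ± 0.28, edgeR adjusted p 0.205). In LH, foxj2 averaged 7.63 ± 3.61 CPM and foxj3 74.2 ± 11.3 CPM, against 12.5 ± 3.34 and 65.1 ± 3.20 CPM in non-LH (SD, n = 4), with no call.

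**Figure D4:**
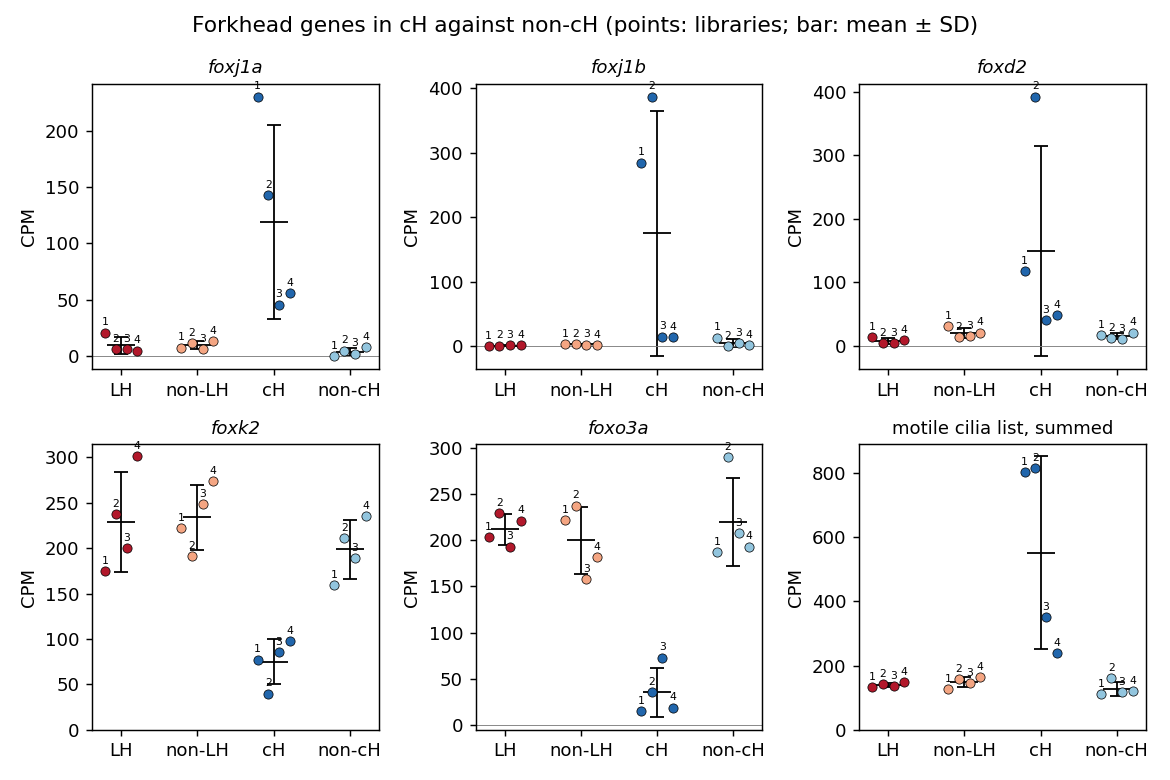
CPM of foxj1a, foxj1b, foxd2, foxk2 and foxo3a and the summed CPM of the motile cilia list in all 4 groups, with 1 point per library (numbered by replicate) and the mean ± SD as a bar. The cH points lie above all non-cH points for foxj1a, foxj1b, foxd2 and the cilia list, with libraries 1 and 2 highest, and below them for foxk2 and foxo3a.

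FoxO genes, which act in insulin signalling, stress and cell survival, had 1 copy called in LH and another in cH. The copy foxo3b stood at 651, 748, 611 and 602 CPM in LH, against 351, 435, 357 and 342 CPM in non-LH. All LH libraries were above all non-LH libraries (log2 fold change 0.82 ± 0.11, edgeR adjusted p 0.000716). Its sister copy foxo3a stood at 203, 229, 193 and 221 CPM in LH, against 222, 238, 158 and 182 CPM in non-LH, with overlap (log2 fold change 0.08 ± 0.14, edgeR adjusted p 0.792). In cH it was foxo3a that passed. It stood at 14.8, 35.5, 73.1 and 18.9 CPM, against 187, 290, 207 and 193 CPM in non-cH, and all cH libraries were below all non-cH libraries (log2 fold change -2.66 ± 0.52, edgeR adjusted p 0.0137). Without non-cH library 2 its adjusted p was 0.0523, while setting aside cH libraries 1 and 2 gave a passing change of -2.25 ± 0.56 (edgeR adjusted p 0.0351). The level of foxo3b was 318, 319, 340 and 427 CPM in cH, against 519, 478, 427 and 408 CPM in non-cH, with overlap (log2 fold change -0.41 ± 0.16, edgeR adjusted p 0.183).

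The change in LH differed from that in cH for both copies, by 1.2 ± 0.19 for foxo3b and by 2.71 ± 0.53 for foxo3a on the log2 scale (edgeR adjusted p 0.000555 and 0.00312). The ratio of foxo3b to foxo3a counts within a library, which does not depend on scaling, was 2.72 to 3.26 in LH against 1.58 to 2.25 in non-LH, and 4.65 to 22.7 in cH against 1.65 to 2.77 in non-cH. It was thus higher in both positive groups than in their negative groups without overlap.

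**Figure D5:**
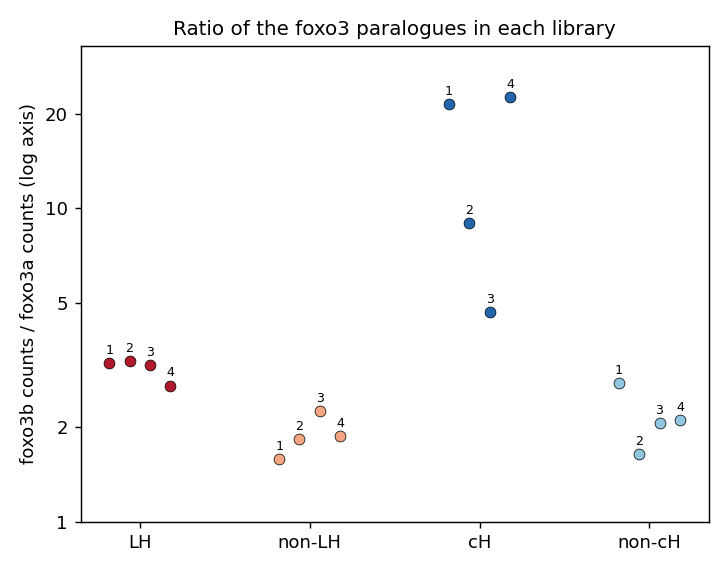
Ratio of foxo3b to foxo3a counts in each library (y axis, log scale) by group, with 1 point per library numbered by replicate. LH points lie between 2.72 and 3.26, above all non-LH points, and cH points between 4.65 and 22.7, above all other libraries.

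The other FoxO genes did not pass in LH or in cH. The level of foxo1a averaged 20.0 ± 5.39 CPM in LH and 27.7 ± 3.40 CPM in non-LH, and 55.3 ± 9.05 CPM in cH and 32.9 ± 3.91 CPM in non-cH (SD, n = 4). The groups of each line did not overlap, LH being lower and cH higher, but neither change passed (edgeR adjusted p 0.291 and 0.252). For foxo4 the means were 62.1 ± 15.8 CPM in LH and 77.9 ± 11.7 CPM in non-LH, and 120 ± 28.2 CPM in cH and 100 ± 14.3 CPM in non-cH, all overlapping. The copy foxo1b held 10 counts over the LH libraries and 0 over non-LH, 172 over cH, all in library 2, and 4 over non-cH.

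Genes upstream and downstream of FoxO were followed from 2 lists, and in LH the shares called higher, 1 of 17 and 2 of 23, were near the 7.14% of all genes. In cH 2 of 17 and 3 of 23 were called higher, where the share of all genes was 5.05%. Called lower in cH were 1 of 17 and 1 of 23, where that share was 6.85%. Of 17 insulin and PI3K-Akt genes, 1 rose and 1 fell in LH against non-LH: irs2b, an insulin receptor substrate and itself a FoxO target in mammals, at 363 ± 105 CPM in LH and 139 ± 3.04 CPM in non-LH, and the kinase gene akt2 at 21.8 ± 8.82 CPM in LH and 42.4 ± 4.12 CPM in non-LH (edgeR adjusted p 0.000889 and 0.0464). In cH against non-cH 2 rose and 1 fell, among them the kinase gene sgk1 at 321 ± 118 CPM in cH and 103 ± 9.85 CPM in non-cH and the phosphatase gene ptenb at 163 ± 31.9 CPM in cH and 312 ± 10.8 CPM in non-cH (edgeR adjusted p 0.00881 and 0.0128). The median over this list was 0.03 in log2 fold change in both comparisons. Of the mammalian FoxO target genes, 2 rose and 0 fell of 23 tested in LH, the stress genes sesn3 and gadd45bb (edgeR adjusted p 0.0154 and 0.0192), with a list median of -0.15. In cH 3 rose and 1 fell, with a list median of 0.59, among them gadd45ba and the catalase gene cat (edgeR adjusted p 0.00438 and 0.0059). The summed level of this list was 3390 to 4674 CPM in cH and 1530 to 2159 CPM in non-cH, and 1705 to 1921 CPM in LH and 1505 to 1733 CPM in non-LH. Much of the higher cH sum lay in gadd45ba and cat.

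FoxK factors repress autophagy genes and respond to insulin in mammalian cells. The gene foxk2 stood at 77.3, 39.8, 85.2 and 97.5 CPM in cH, against 159, 211, 189 and 235 CPM in non-cH. All cH libraries were lower (log2 fold change -1.44 ± 0.30, edgeR adjusted p 0.0169), and the call was lost without non-cH library 2, 3 or 4, with adjusted p over all left-out libraries from 0.0126 to 0.056. In LH it stood at 175, 238, 200 and 301 CPM, against 222, 191, 249 and 274 CPM in non-LH, with overlap (log2 fold change -0.03 ± 0.18). The 2 changes differed by 1.37 ± 0.35 on the log2 scale (edgeR adjusted p 0.0179). Its relative foxk1 did not pass, at 29.1 ± 18.6 CPM in cH and 30.3 ± 8.97 CPM in non-cH, and 34.1 ± 11.8 CPM in LH and 34.7 ± 5.77 CPM in non-LH.

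The cell cycle factor foxm1 did not pass in LH or in cH. It stood at 1.81, 1.39, 8.97 and 5.62 CPM in LH, against 15.6, 4.54, 18.1 and 19.9 CPM in non-LH, where non-LH library 2 reached into the LH range (log2 fold change -1.71 ± 0.67, edgeR adjusted p 0.136). In cH it stood at 4.62, 0.00, 0.0364 and 3.36 CPM, against 8.78, 7.08, 11.9 and 5.04 CPM in non-cH, without overlap but with an adjusted p from edgeR of 0.61. Of 17 mitotic genes tested, known as FoxM1 targets in mammalian cells, 0 rose and 12 fell in LH, with a median log2 fold change of -1.95, led by mki67 (77.9 ± 13.0 CPM in LH and 305 ± 40.2 CPM in non-LH, edgeR adjusted p 3.16e-05) and aurkb (16.9 ± 2.63 CPM in LH and 67.8 ± 8.03 CPM in non-LH, edgeR adjusted p 8.97e-05). In cH 1 fell, mki67, and 0 rose (32.5 ± 23.4 CPM in cH and 190 ± 39.0 CPM in non-cH, edgeR adjusted p 0.0182), with a median of -2.45. Over all genes tested, 6.24% were called lower in LH and 6.85% in cH, with median log2 fold changes of -0.01 and -0.20. The 1 of 17 mitotic genes lower in cH was thus near the share of all genes. The summed mitotic level was 308 to 515 CPM in LH and 1338 to 1672 CPM in non-LH, and 121 to 261 CPM in cH and 731 to 1034 CPM in non-cH.

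Genes known from vessels, meninges and mesenchyme had few reads. FoxC and FoxF factors act in pericytes and connective tissue. The genes foxc1a and foxq1b had 0 counts in LH, against 248 and 244 counts in non-LH. By the floor of 3 counts over the group, LH was at least 70.1-fold and 68.9-fold lower. These bounds cover counting error and not the spread between libraries. The groups did not overlap for foxc1a but did for foxq1b, which was also at 0 in non-LH library 4. The 64 counts of foxf2a in non-LH were all in library 4, and it had 0 counts in LH. In cH, foxc1a had 358 counts, all in library 4, against 1290 in non-cH, and the change did not pass. That library, at 8.07 CPM, lay within the non-cH range of 2.73 to 14.3 CPM. Leaving it out left foxc1a at 0 in cH, and the gene then passed as lower (edgeR adjusted p 0.0244). Since the library left out held all cH reads of foxc1a, nothing is read from that call. The only cH library with foxf2b reads was also library 4, with 422 counts, and the only one with foxc1b reads was library 2, with 128 counts. The genes foxf2a and foxq1b had 0 counts in cH, against 49 in non-cH, all in library 2, and 172 in non-cH, all in library 3. Since each rests on 1 library, no fold is given. In the RefSeq table of another assembly, foxc1a and foxf2a lie with 1 gene between them, and foxq1b, foxf2b and foxc1b lie next to each other. Endothelial markers had 1 higher and 1 lower of 8 in LH, at 68.0 to 140 CPM in LH and 144 to 204 CPM in non-LH, and 0 higher and 4 lower of 10 in cH, at 0.00 to 31.3 CPM in cH and 122 to 283 CPM in non-cH. In cH, 5 of these 11 markers were at 0: clec14a, egfl7, flt1, kdrl and mrc1a. Mural and meningeal markers had 0 higher and 1 lower of 10 in LH, at 110 to 180 CPM in LH and 232 to 410 CPM in non-LH. They had 2 higher and 1 lower of 6 in cH, at 709 to 1569 CPM in cH and 234 to 1332 CPM in non-cH, and notch3, which radial glia share, was the higher one with the smallest p. Of the mean cH sum of 1208 CPM, notch3 made up 720 CPM and dcn 400 CPM. In cH acta2, fmoda and lum were at 0, and col1a1a was at 0 in both groups. The lower one, col1a2, averaged 0.0381 CPM in cH and 293 ± 478 CPM in non-cH. The value of 1332 CPM is that of non-cH library 2 alone, the others being at 234 to 253 CPM, and the same library held all non-cH counts of foxf2a and the highest non-cH level of foxf2b. The part of these cells in the values of the FoxC, FoxF and FoxQ genes was not tested. Beside the marker counts, 7.14% of all genes tested were called higher and 6.24% lower in LH, and 5.05% and 6.85% in cH.

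The last members are known from other tissues and had few reads. The regulatory T cell factor gene foxp3a had 387 counts in LH and 200 in non-LH, and 0 in cH and 263 in non-cH; its copy foxp3b had 234 counts in non-cH and 0 in the other groups. Lymphocyte markers had no call of 4 tested in LH, at 10.8 to 21.5 CPM in LH and 8.57 to 14.9 CPM in non-LH, with lck and rag1 at 0 in LH. These sums include cd3eap, whose use as a lymphocyte marker is doubtful, so nothing is read from them. The smallest p belonged to cd8a, at 1.49 ± 0.282 CPM in LH and 0.134 ± 0.181 CPM in non-LH without overlap (edgeR adjusted p 0.178). Next was zap70, at 8.83 ± 5.04 CPM in LH and 2.38 ± 2.26 CPM in non-LH with overlap (edgeR adjusted p 0.364). In cH the 1 gene tested was cd3eap, which made up 7.10 of 9.07 CPM of the list's mean sum in non-cH, so nothing is read from this list there. The thymic epithelial factor foxn1 had 44 counts in non-cH and none elsewhere. The ovarian and pituitary factor foxl2 had 54 counts in LH and 40 in non-LH, in each group all in library 1. It had 0 in cH and 269 in non-cH, in 2 libraries. For the Nodal cofactor foxh1, LH libraries held 25 counts, non-LH libraries 159, all in library 3, cH libraries 0 and non-cH libraries 208. For foxi1, an ionocyte factor in mammals, LH libraries held 49 counts, all in library 4, and non-LH libraries 28. In cH it had 24, also all in library 4, and in non-cH 0. The totals above 0 of foxp3b, foxn1, foxl2, foxh1 and foxi1 each rest on 1 or 2 libraries, so nothing is read from them. Oligodendrocyte markers had no call of 10 tested in LH and of 9 in cH, microglial markers none of 7 in cH, and red blood cell genes 0 higher and 6 lower of 6 in cH.

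LH cells were also set directly against cH cells, which differ in driver line and reporter as well as in region, so that these cannot be told apart. Of 27 members tested, 8 passed: foxk2, foxo3a and foxo3b were higher in LH, and foxb1a, foxd2, foxj1a, foxj1b and foxo1a were lower in LH. Of all genes tested, 7.55% were called higher and 6.03% lower. The log2 fold changes were 1.60 ± 0.32 for foxk2, 2.57 ± 0.50 for foxo3a and 0.88 ± 0.16 for foxo3b, with edgeR adjusted p from 0.0093 to 0.0118. They were -2.16 ± 0.42 for foxb1a, -4.27 ± 0.89 for foxd2, -3.68 ± 0.77 for foxj1a, -7.02 ± 1.49 for foxj1b and -1.48 ± 0.40 for foxo1a, with edgeR adjusted p from 0.0106 to 0.0423. Of all 42 members, 6 were higher and 6 lower in LH without overlap, the 8 called among them. The share of all genes without overlap was not computed for this comparison, so nothing is read from these counts. This comparison uses the same LH and cH libraries as those above. The call of foxo1a was lost in 6 of the 8 fits that leave out a library, that of foxj1b without LH library 2 or 4, and that of foxd2 without LH library 3.

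Between the negative cells of the lines, non-LH against non-cH, 0 of 33 members tested passed with edgeR or with DESeq2, and 3 were under an unadjusted p of 0.05 in edgeR. Of all genes tested, 0.0689% were called in either direction, and 1581 of 18865 were under an unadjusted p of 0.05, a share near that of the members. Those 3 members were foxc1a, foxo3b and foxo4, named after their values were seen. Their log2 fold changes were -2.40 ± 0.90, -0.31 ± 0.11 and -0.36 ± 0.16 (edgeR adjusted p 0.499, 0.499 and 0.581).

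In the test of the difference between the LH and cH changes, 7 of 36 members passed: foxk2, foxo3a and foxo3b were higher in LH relative to non-LH than in cH relative to non-cH, and foxb1a, foxd2, foxj1a and foxj1b were lower. Of all genes tested, 7.54% were called higher and 4.52% lower. Under an unadjusted p of 0.05 were 14 of the 36 members and 5084 of all 20241 genes tested. None of these calls was lost without any 1 of the 16 libraries. For foxn4, foxp1b, foxp2 and foxp4, called in LH and not in cH, the difference itself did not pass, with log2 differences of -0.71 ± 0.64, -1.02 ± 0.98, 0.35 ± 0.74 and 0.22 ± 0.36 (edgeR adjusted p 0.579 to 0.856).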

How the data were processed

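The authors' deposited table holds raw counts of reads for each gene in the 16 libraries, as whole numbers without normalization. Per the labels' protocols, cDNA came from SMARTSeq v2 and libraries from Nextera XT, which does not mark strand; per the submitters' processing notes, FastQC, STAR and GRCz11 were used, with no versions given. The read counter is not given in the sources used here, so reads of near-identical copies, overlapping or antisense genes may be misassigned. Of 47038 rows, 9 without a gene name or count were left out, and 47029 were summed to 30565 symbols. Several rows were summed for 5 members (foxb1b, foxl2, foxn2b, foxp2 and foxp4). The members, gene lists and tests were chosen with earlier results of these data known. Of 223 listed symbols, 219 were found by name, 3 by a RefSeq synonym (assembly GRCz12tu, used for names and neighbours only), and dnah8 was not found.

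Each comparison used the 8 libraries of its groups (16 for the difference of differences) in edgeR 4.0.16 under R 4.3.3: filterByExpr, TMM, robust quasi-likelihood F test, two-sided, Benjamini-Hochberg adjustment over all genes tested, threshold 0.05. This design was chosen because the cH libraries were known to spread more than the others. The SE was obtained as the absolute log2 fold change over the square root of its F statistic. Exact permutation tests of CPM were two-sided. CPM are TMM-scaled over all 16 libraries. Each replicate is a pool of 8 brains per the labels. Whether positive and negative libraries of the same number came from the same pool was not taken as known. Described library by library are members past the threshold in LH or cH whose groups did not overlap and whose higher group averaged at least 5 CPM, and foxb1a, foxj1a, foxj1b, foxm1, foxn4, foxo3b and foxp2; of the pathway lists, up to 2 genes with the smallest p per comparison are named, and of the marker lists a few of these. Other members with values per library were added after their values were seen. Floors of 3 counts and 95% intervals cover counting error only, since the reads carry no molecular identifiers. Alternatives were DESeq2 1.42.0, limma 3.58.1 (voom), other size factors, no filter on low counts, rows as deposited, 16 libraries in 1 fit, a replicate block, left-out libraries, and cH libraries 1 and 2 set aside. The fits were tested on simulated data. Sequences and coordinates were not used here, and some members counted in the totals are not reported here.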

Additional observations from a re-analysis of the deposited data

Results flagged for a closer look

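Libraries stood apart from the other 3 of their group, by Dixon's criterion, in 4 of 48 groups of described genes, where chance gives about 1 in 20. For foxp1b, cH library 2 had 145 CPM against 6.77 to 26.3 CPM in the other cH libraries, and for foxp4 the same library had 175 CPM against 75.0 to 81.1 CPM. For foxj1a, LH library 1 had 20.8 CPM against 4.88 to 6.15 CPM in the other LH libraries. For foxo3b, non-LH library 2 had 435 CPM against 342 to 357 CPM in the other non-LH libraries.

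The LH and cH changes differed for 7 genes by the test of the difference in 1 edgeR fit of 16 libraries (log2 difference, LH minus non-LH less cH minus non-cH). The difference was 2.71 ± 0.53 for foxo3a, 1.37 ± 0.35 for foxk2 and 1.2 ± 0.19 for foxo3b. It was -1.95 ± 0.42 for foxb1a, -4.68 ± 0.94 for foxd2, -5.06 ± 1.34 for foxj1a and -6.25 ± 1.57 for foxj1b. Adjusted p from edgeR ran from 0.000555 for foxo3b to 0.0217 for foxj1a. The differences of foxj1a and foxj1b did not pass with cH libraries 1 and 2 set aside.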

How the results depend on the processing

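Of 25 called results for single genes, 233 of 256 values with a library left out and 162 of 187 values under the other settings kept their direction and passed; the rest kept their direction only. In LH against non-LH, 6 members passed, 2 with all 16 libraries in 1 fit, 11 with DESeq2, and 7 to 9 with a library left out. In cH against non-cH, 4 passed, 11 with 16 libraries in 1 fit, 8 with DESeq2, and 0 to 5 with a library left out. In LH against cH, 8 passed, 15 with 16 libraries, 15 with DESeq2, and 6 to 9 with a library left out. For the difference of differences, 7 passed, 14 with DESeq2, and 7 to 8 with a library left out; non-LH against non-cH had 0 throughout. Same-numbered replicates showed little shared deviation (r across 20263 genes from -0.024 to 0.037), so the numbers were not taken as pairs. For cH and non-cH every same-numbered r was above 0, at 0.010 to 0.037. Different-numbered r of these groups ran from -0.043 to 0.026, so a weak pairing there is not excluded. With a replicate block, 7 members passed in LH against non-LH, 1 in cH against non-cH (foxo3a), 1 in LH against cH (foxj1a), and 5 for the difference. The foxj1a change in LH against non-LH, -0.03, ran from -0.77 to 0.17 with a library left out, turning sign in 5 of 8. Over all genes, calls in LH against non-LH were 2499, 338 with 16 libraries and 4125 with DESeq2. In cH against non-cH they were 2054, 4137 with 16 libraries, 483 with the block, 4423 with DESeq2, 3137 with voom and 3712 with cH libraries 1 and 2 set aside. In LH against cH they were 2314, 4606, 556, 4935, 3754 and 4578 under the same settings in that order. In non-LH against non-cH they were 13, 2 with 16 libraries, 4 with the block, 476 with DESeq2, 138 with rows as deposited and 4 with voom. For the difference they were 2440, 4261 with DESeq2 and 4697 with those cH libraries aside. The cause of these shifts was not tested. The 13 and 11 members not tested in LH and cH fell to the filter on low counts, and the part of depth in this was not tested.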
